A study of Rattus norvegicus with 12 samples.

Results

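The gene set described here joins the transporters, enzymes and regulators of glycolysis with genes of the cellular response to low oxygen. Its 45 symbols were listed by name with earlier results of these data known, though no threshold on the measurements selected them. Of the 14506 genes measured on the arrays, 44 were members. The one symbol without a row of its own, Ero1l, is the older name of Ero1a, which was measured. By role, the members comprised 2 glucose transporters, 17 enzymes, 4 isoforms of the enzyme that makes and breaks fructose 2,6-bisphosphate, 3 pyruvate dehydrogenase kinases, 4 genes of hypoxia-inducible factors (HIFs) and their prolyl hydroxylases, and 14 other HIF targets.

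The cells were primary cultures of the inner medullary collecting duct (IMCD), the last stretch of the nephron's drainage system, from kidneys of 7-week-old male rats of the strain labelled SD. All cultures first spent 4 days in medium of 640 mOsm/kg, a hyperosmolar medium. They were then moved to 300 mOsm/kg or kept at 640 mOsm/kg for another 24 h or 48 h, with 3 arrays in each of the 4 groups. RNA was measured once per sample on a whole-transcript rat gene array, and the series asks how osmolality sets the transcriptome of these cells. The groups were therefore 300 mOsm/kg at 24 h, 640 mOsm/kg at 24 h, 300 mOsm/kg at 48 h and 640 mOsm/kg at 48 h. No array was taken at the moment of the step, so the 640 mOsm/kg cultures of the same age served as the comparison. Nothing in the labels tells if the 3 arrays per group stand for 3 animals, 3 dishes or 1 pool, and the p-values cover array-to-array spread of unknown origin, possibly technical alone.

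Glycolysis takes up glucose through GLUT transporters and splits it to pyruvate, which is either reduced to lactate or passed to the mitochondria. Its pace is set largely at hexokinase and at phosphofructokinase, which fructose 2,6-bisphosphate activates, while pyruvate dehydrogenase kinases close the mitochondrial route. HIFs are transcription factors whose alpha subunits are marked for destruction by oxygen-dependent prolyl hydroxylases; when oxygen is short they accumulate and switch on most glycolytic genes together with other targets. The inner medulla is known as a poorly oxygenated, hyperosmotic tissue in which collecting duct cells live largely on glycolysis.

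Levels are given as log2 array signal after each array had been set to a common median, so that a change of 1 is a 2-fold change. A probe set's level cannot be compared with that of another gene's probe set, and only differences between groups of the same gene are read here. The arrays differed in overall brightness before centring. The median log2 signal was 6.81 to 6.97 on the 6 arrays at 48 h and 7.43 to 7.58 on 4 of the arrays at 24 h, while replicate 1 at 300 mOsm/kg and replicate 3 at 640 mOsm/kg of the 24 h set had 6.89 and 6.90. Changes were tested with limma over all 14506 genes with Benjamini-Hochberg adjustment, and a gene was called when its adjusted p was under 0.05. Arrays were taken as unpaired unless a replicate block is named. Among 13 listed markers of principal cells, Aqp2, their vasopressin-regulated water channel, fell at 300 mOsm/kg. Its changes were -3.65 at 24 h and -4.41 at 48 h (adjusted p = 5.61e-05 and 2.88e-06, limma). The sodium channel subunits Scnn1a, Scnn1b and Scnn1g, on the same list, differed by -0.24, 0.06 and 0.04 over both times and were not called. Such changes do not by themselves show the identity of the cells. The epithelial markers Krt8 and Cdh1 differed by 0.32 and 0.17 over both times and were not called (adjusted p = 0.486 and 0.884). Over both times 5 of the 13 principal cell markers were called lower. The mean level of the 13 was 8.73 to 8.92 at 300 mOsm/kg and 9.33 to 9.56 at 640 mOsm/kg at 24 h.

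Few of the 44 genes changed when osmolality was lowered. Pfkfb3 was the one member called at 24 h, and Pfkfb3, Hk1, Pdk4 and Hif1a were called at 48 h, all lower at 300 mOsm/kg (limma). Averaged over both times, 5 members were called lower (Pfkfb3, Hk1, Hif1a, Egln3 and Mxi1) and 1 was called higher (Pdk1). On the deposited values without centring of the arrays, no member was called at 24 h and Pfkfb3 alone at 48 h and over both times (adjusted p = 0.204 at 24 h and 0.00402 at 48 h, limma). In bulk RNA such as this, fewer cells of a type and less RNA per cell cannot be told apart.

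The called members made up 2.27% of the set at 24 h against 0.655% of all genes tested, 9.09% against 1.85% at 48 h, and 13.6% against 3.43% over both times. Since the members were chosen with earlier results of these data known, these shares are no test of the set. In the direction most members took, 0.379% of all genes were called lower at 24 h, 1.33% at 48 h and 2.10% over both times, and 1.33% were called higher over both times. The typical member moved little. The median change was -0.05 at 24 h, -0.07 at 48 h and -0.07 over both times for the 44 members, beside -0.04, 0.02 and -0.01 for all genes. Without regard to sign, the median member differed by 0.14 over both times, beside 0.10 for all genes. Of the members, 26 were lower and 11 higher at both times and 7 had opposite signs. The same count was not made over all genes, so it is not read as a feature of the members. The arrays of Hk1, Pfkfb3, Egln3 and Mxi1 did not overlap between 300 and 640 mOsm/kg at either time, all lower at 300 mOsm/kg, a pattern that 2.43% of all genes showed. Pdk1 was the 1 member whose arrays lay apart and higher at both times, as did those of 1.6% of all genes. At single times the arrays were apart and lower in 5 members at 24 h (4.86% of all genes) and 7 at 48 h (7.02%), and apart and higher in 1 member at 24 h (3.7%) and 3 at 48 h (7.83%).

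**Figure D1:**
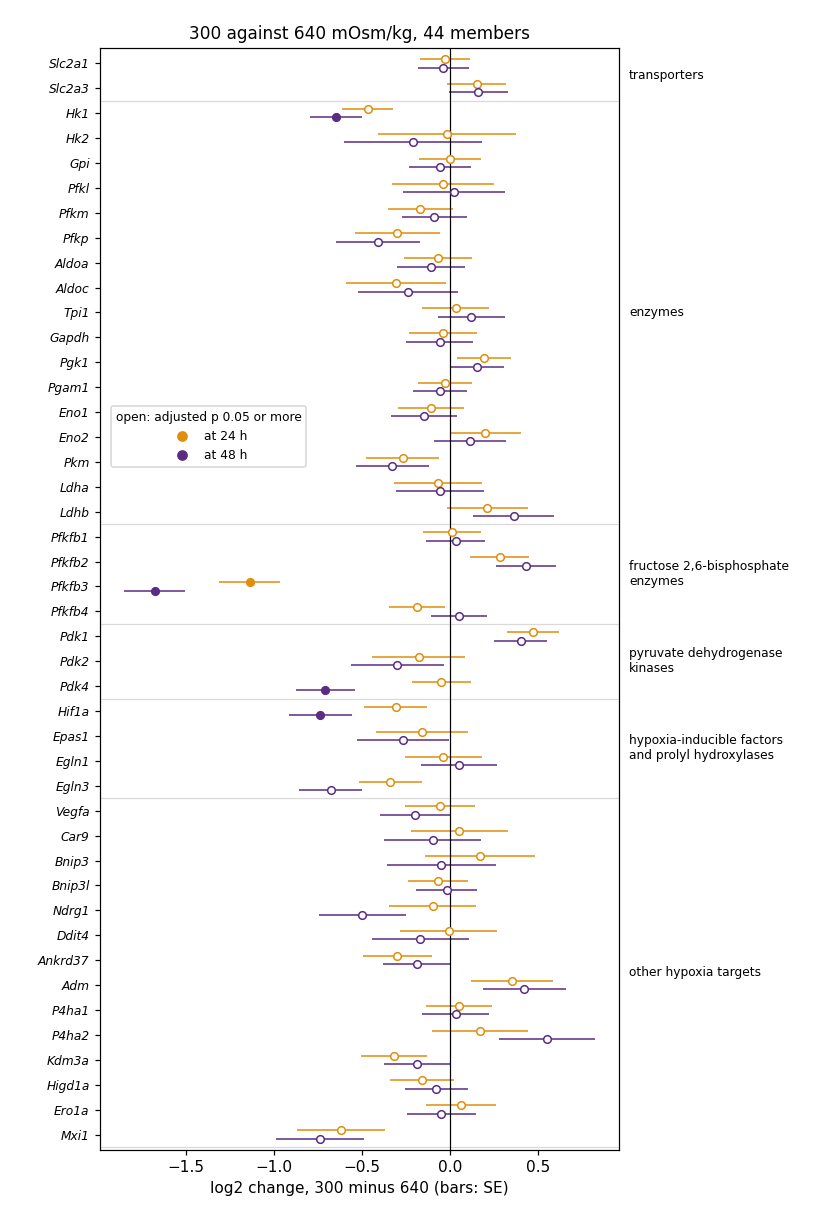
Change in log2 signal at 300 against 640 mOsm/kg (x axis, 300 minus 640) for the 44 members (y axis, grouped by role) at 24 h and 48 h; points are group differences from limma (3 arrays per group), bars are standard errors, and filled points have an adjusted p under 0.05. Pfkfb3 stands at -1.14 and -1.68, and most other members lie within 0.5 of zero.

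The upstream sequence of the called members shows how the core letters to which HIFs bind are placed. The 250 bases before the annotated start were taken from RefSeq (GRCr8) for the 39 members with an entry, and ACGTG or GCGTG was searched on both strands. The letters CACGTG hold ACGTG on either strand and count as 2 overlapping matches. The core was found in 23 of 39 member promoters (59.0%), beside 47.0% of the 11968 promoters of genes tested and 36.7% of all 33469 promoters of the table. Among the 7 members called in any comparison 4 held it, against 19 of the 32 others. The pattern YGGAADNNNYNY (Y is C or T, D is A, G or T, N is any letter) was matched in 4 of the 39 (10.3%). The share was 18.0% for genes tested, and Pdk4 was the 1 called member with a match. This pattern resembles the tonicity element to which the osmotic factor NFAT5 binds but spaces its last letters differently. These are therefore not counts of that element. A match is a description of letters and not of binding. The promoters of the 4 called members with a core match follow, with the core letters in capitals, at chr17:71944683-71944932 (plus strand) for Pfkfb3, chr3:77113264-77113513 (plus strand) for Pdk1, chr6:98359648-98359897 (plus strand) for Hif1a and chr1:262348392-262348641 (plus strand) for Mxi1.
Pfkfb3: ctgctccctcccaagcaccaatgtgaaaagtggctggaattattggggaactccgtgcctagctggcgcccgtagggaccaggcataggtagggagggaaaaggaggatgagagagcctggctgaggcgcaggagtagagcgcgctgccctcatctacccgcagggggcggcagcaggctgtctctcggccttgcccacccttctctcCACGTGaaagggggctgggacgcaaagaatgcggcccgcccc
Pdk1: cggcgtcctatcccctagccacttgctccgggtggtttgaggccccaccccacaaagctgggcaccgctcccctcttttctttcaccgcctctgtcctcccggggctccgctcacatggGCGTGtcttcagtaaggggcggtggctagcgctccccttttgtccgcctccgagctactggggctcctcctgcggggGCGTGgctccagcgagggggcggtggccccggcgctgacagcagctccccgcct
Hif1a: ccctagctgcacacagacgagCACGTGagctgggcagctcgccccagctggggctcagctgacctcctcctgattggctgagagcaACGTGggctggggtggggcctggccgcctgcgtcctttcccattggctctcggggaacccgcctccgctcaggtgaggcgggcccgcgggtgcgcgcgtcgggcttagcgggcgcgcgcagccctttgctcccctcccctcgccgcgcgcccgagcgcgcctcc
Mxi1: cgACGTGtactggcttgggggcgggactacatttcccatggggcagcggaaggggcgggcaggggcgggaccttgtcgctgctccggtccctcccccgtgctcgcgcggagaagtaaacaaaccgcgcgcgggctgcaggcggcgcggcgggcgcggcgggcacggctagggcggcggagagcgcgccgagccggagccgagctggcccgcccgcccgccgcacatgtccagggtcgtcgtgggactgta

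In Pfkfb3 the single CACGTG stood close to the start, its nearer match beginning at position -41, counted back from the start. Pdk1 held GCGTG at 2 places, the nearer beginning at -54. In Hif1a the nearest of 3 matches began at -164, and in Mxi1 the only match began at -248. The windows of Hk1, Pdk4 and Egln3 held no core letters.

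Pfkfb3, the bifunctional enzyme whose kinase activity makes fructose 2,6-bisphosphate, had the largest change of the 44 members at each time. At 24 h it read 8.22, 8.31 and 8.31 at 300 mOsm/kg, against 9.61, 9.26 and 9.38 at 640 mOsm/kg. At 48 h it read 8.31, 7.92 and 8.39 at 300 mOsm/kg, against 9.99, 9.66 and 10.02 at 640 mOsm/kg. Every array at 300 mOsm/kg lay below every array at 640 mOsm/kg, with a gap wider than the spread within any group. The fall was 1.14 ± 0.175 (SE) at 24 h, a 2.20-fold lower signal (adjusted p = 0.00734, limma). At 48 h the change was -1.68 ± 0.175, or 3.20-fold lower (adjusted p = 5.74e-05, limma), and over both times -1.41 ± 0.124 (adjusted p = 7.33e-06). Group means at 300 mOsm/kg were 8.21 ± 0.249 at 48 h and 8.28 ± 0.0539 at 24 h, and at 640 mOsm/kg 9.89 ± 0.200 at 48 h and 9.42 ± 0.180 at 24 h (SD, n = 3 each). The 48 h change exceeded the 24 h change by -0.54 ± 0.247, which was not called (unadjusted p = 0.0448, adjusted p = 1.0, limma). The 24 h call was lost when 640 mOsm/kg replicate 1 was left out, which gave -1.04 (adjusted p = 0.053, limma), and when both dimmer 24 h arrays were left out (adjusted p = 0.0714) or the 24 h arrays were fitted alone (adjusted p = 0.0786). The 48 h call was kept without any 1 of the 12 arrays.

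None of the other 3 isoforms of this enzyme was called. Pfkfb2, the isoform first known from heart, read 8.32, 8.68 and 8.67 at 300 mOsm/kg and 8.38, 8.45 and 8.02 at 640 mOsm/kg at 24 h. At 48 h Pfkfb2 had 8.53, 8.63 and 8.41 at 300 mOsm/kg and 8.0, 8.18 and 8.12 at 640 mOsm/kg. The groups overlapped at 24 h and lay apart at 48 h, opposite in direction to Pfkfb3, but the differences of 0.28, 0.43 and, over both times, 0.35 were not called (adjusted p = 1.0, 0.409 and 0.17, limma). Pfkfb1, known from liver and muscle, differed by 0.02 over both times with a 95% interval from -0.23 to 0.27. Pfkfb4 differed by -0.07, with an interval from -0.31 to 0.17.

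**Figure D2:**
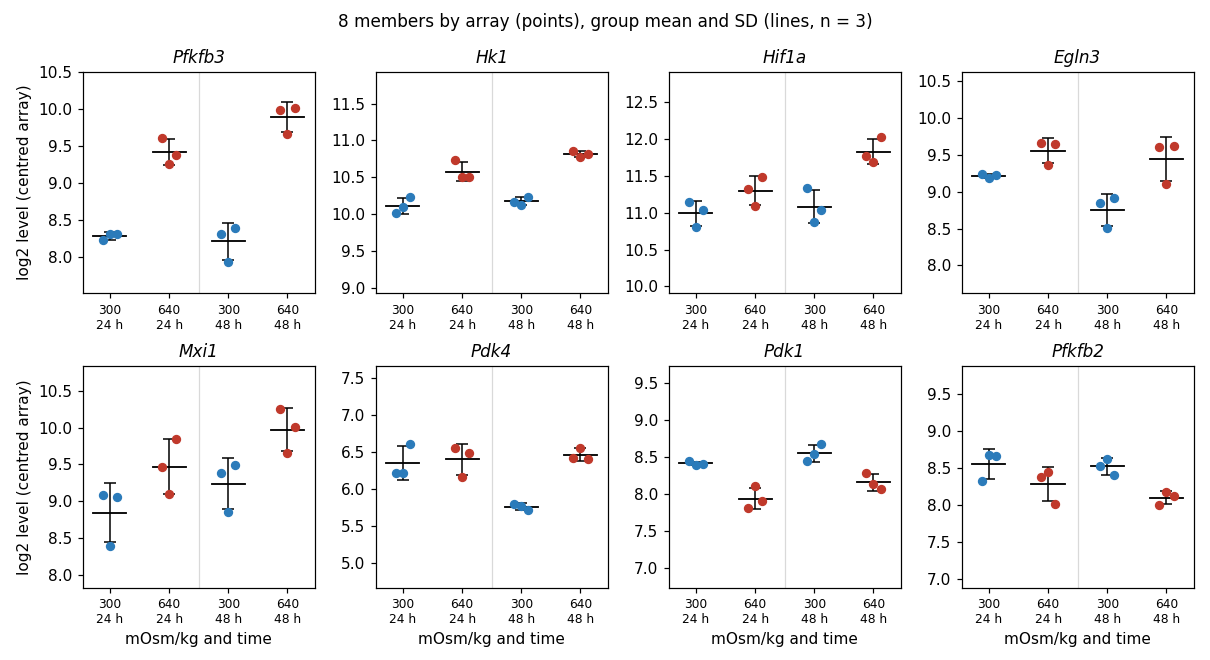
Log2 signal (y axis) of Pfkfb3, Hk1, Hif1a, Egln3, Mxi1, Pdk4, Pdk1 and Pfkfb2 on each of the 12 arrays, with the 300 mOsm/kg group left of the 640 mOsm/kg group at each time (x axis); points are arrays, long lines are means of 3 and bars are SDs. In Pfkfb3 and Hk1 the 300 mOsm/kg arrays lie below all 640 mOsm/kg arrays of the same time, while Pdk4 separates at 48 h and overlaps at 24 h.

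Of the 19 transporters and enzymes, Hk1 was the only one called for osmolality. Hk1, the broadly expressed hexokinase that traps glucose as its phosphate on the mitochondrial surface, had 10.01, 10.09 and 10.23 at 300 mOsm/kg and 10.73, 10.5 and 10.5 at 640 mOsm/kg at 24 h. The 48 h values were 10.17, 10.12 and 10.23 at 300 mOsm/kg and 10.86, 10.78 and 10.81 at 640 mOsm/kg. The groups were apart at both times, with SDs of 0.0544 at 300 mOsm/kg and 0.0397 at 640 mOsm/kg at 48 h (n = 3 each). The change was -0.47 ± 0.146 at 24 h (adjusted p = 0.30, limma), -0.65 ± 0.146 at 48 h (1.56-fold lower, adjusted p = 0.0319) and -0.56 ± 0.103 over both times (1.47-fold lower, adjusted p = 0.00506). Leaving out any 1 of the 6 arrays at 48 h ended the 48 h call (adjusted p 0.092 to 0.157, limma), whereas the call over both times was kept without each of the 12 arrays (adjusted p 0.00697 to 0.0199).

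Hk2, the hexokinase known as a HIF target and insulin-responsive isoform, was not called. It read 9.27, 7.94 and 8.89 at 300 mOsm/kg and 8.86, 8.09 and 9.21 at 640 mOsm/kg at 24 h, and 9.13, 7.99 and 8.81 at 300 mOsm/kg and 8.99, 8.20 and 9.37 at 640 mOsm/kg at 48 h. Replicate 2 was lowest in all 4 groups, and the spread of up to 1.33 within a group left a difference over both times of -0.11 with a 95% interval from -0.71 to 0.48. The change seen in Hk1, -0.56, lies inside that interval, which took the arrays as unpaired. Across genes, 300 mOsm/kg replicates 1, 2 and 3 deviated together with 640 mOsm/kg replicates 3, 2 and 1 (correlations from 0.576 to 0.844). In that pairing Hk2 at 24 h read 9.27 beside 9.21, 7.94 beside 8.09 and 8.89 beside 8.86 (300 beside 640 mOsm/kg). At 48 h Hk2 read 9.13 beside 9.37, 7.99 beside 8.20 and 8.81 beside 8.99. Within every pair the 2 values lay closer together than 0.56, the size of the Hk1 change. A fit with that pairing was not run, so no interval is given under it.

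The other 18 transporters and enzymes were not called. Over both times the 19 transporters and enzymes had a median change of -0.05, with 5 higher and 14 lower, and 13 of the 95% intervals lay within 0.5 of zero, against 6 of 19 at 24 h and 6 of 19 at 48 h. Slc2a1 (GLUT1), the transporter of basal glucose entry, differed by -0.03 with an interval from -0.25 to 0.18. Slc2a3 (GLUT3), a high-affinity transporter, differed by 0.15 (-0.10 to 0.41). At the committed step, Pfkp, the platelet-type phosphofructokinase, differed by -0.35 ± 0.169 (adjusted p = 0.461, limma), while the muscle-type Pfkm and liver-type Pfkl differed by -0.13 and -0.01. Aldoc, an aldolase, differed by -0.27 (-0.70 to 0.15). From Gapdh to pyruvate kinase, the differences ran between -0.30 for Pkm, pyruvate kinase, and 0.17 for Pgk1, phosphoglycerate kinase. Pkm had an interval from -0.61 to 0.01 and Pfkp one from -0.71 to 0.01. All these intervals took the arrays as unpaired. In the pairing of replicates given above, Pkm and Pfkp were lower at 300 mOsm/kg in every pair at both times. Pkm at 24 h read 12.66 beside 12.97, 12.15 beside 12.32 and 12.33 beside 12.64 (300 beside 640 mOsm/kg). At 48 h Pkm read 12.62 beside 12.97, 12.41 beside 12.79 and 12.9 beside 13.17. Gapdh was lower in some pairs and higher in others. No fit with that pairing was run, so this pattern was not tested. Gapdh, the dehydrogenase often used as a reference gene, differed by -0.05 (-0.34 to 0.24), and Ldha, which makes lactate, by -0.06 (-0.44 to 0.32). Ldhb, the lactate dehydrogenase subunit associated with lactate use, was the highest of the 19 at 0.28 ± 0.164 (adjusted p = 0.639, limma). Gapdh, Ldha and Eno1 read 12.48 to 13.75 on single arrays, close to the highest value of any probe set in the table, 13.86; whether their signal still scaled with RNA amount was not tested.

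Among the 3 pyruvate dehydrogenase kinases, Pdk1 rose over both times and Pdk4 fell at 48 h, and no comparison called more than 1 of them. Pdk1, a kinase known as a HIF target that shuts pyruvate out of the mitochondria, was the only member called higher, over both times alone. It read 8.44, 8.39 and 8.41 at 300 mOsm/kg and 7.81, 8.10 and 7.90 at 640 mOsm/kg at 24 h, and 8.44, 8.54 and 8.67 at 300 mOsm/kg and 8.28, 8.13 and 8.06 at 640 mOsm/kg at 48 h. All 300 mOsm/kg arrays lay above the 640 mOsm/kg arrays of the same time. The rise over both times was 0.44 ± 0.106 (1.35-fold, adjusted p = 0.0334, limma), while the changes of 0.47 at 24 h and 0.40 at 48 h were not called on their own (adjusted p = 0.33 and 0.346). The call was kept without 640 mOsm/kg replicate 2 at 24 h or replicate 1 at 48 h and lost without each of the other 10 arrays (adjusted p 0.0502 to 0.108, limma), and was lost with arrays centred on all probe sets (adjusted p = 0.0513).

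Pdk4, the isoform known for its induction by fasting, fell at 48 h, and its 24 h difference was not called. At 24 h it had 6.22, 6.22 and 6.61 at 300 mOsm/kg and 6.56, 6.16 and 6.48 at 640 mOsm/kg, and the groups overlapped. At 48 h it had 5.80, 5.76 and 5.71 at 300 mOsm/kg and 6.42, 6.56 and 6.41 at 640 mOsm/kg, and the groups did not overlap. The change was -0.71 ± 0.167 at 48 h (1.63-fold lower, adjusted p = 0.0418, limma) and -0.05 ± 0.167 at 24 h (adjusted p = 1.0). The difference between those changes, -0.66 ± 0.235, was not called (unadjusted p = 0.0138, adjusted p = 1.0, limma), so a larger effect at 48 h was not established. The 48 h call was lost without any 1 of the 48 h arrays (adjusted p 0.112 to 0.173, limma) and without 640 mOsm/kg replicate 1 or 3 at 24 h (adjusted p = 0.0547 and 0.0514). The mean level of Pdk4 over the arrays was 6.24, and without detection calls it is not known whether this lies above background. Pdk2, the widely expressed isoform, differed by -0.24 ± 0.187 over both times and was not called (adjusted p = 0.876, limma).

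Among the genes of the oxygen-sensing switch, Hif1a and Egln3 fell and Epas1 and Egln1 were not called. Hif1a, the oxygen-regulated alpha subunit found in most cells, read 11.14, 10.80 and 11.03 at 300 mOsm/kg and 11.32, 11.09 and 11.49 at 640 mOsm/kg at 24 h. At 48 h the readings were 11.33, 10.88 and 11.04 at 300 mOsm/kg and 11.77, 11.69 and 12.02 at 640 mOsm/kg. The groups overlapped at 24 h and were apart at 48 h. Hif1a differed by -0.31 ± 0.179 at 24 h (adjusted p = 1.0, limma), by -0.74 ± 0.179 at 48 h (1.68-fold lower, adjusted p = 0.0473) and by -0.53 ± 0.127 over both times (adjusted p = 0.0306). Its transcript level is not a measure of HIF activity, which is set mainly by the stability of the protein.

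Leaving out single arrays ended the Hif1a calls in most cases. The 48 h call was kept without 300 mOsm/kg replicate 1 at 48 h, 300 mOsm/kg replicates 1 or 2 at 24 h, or 640 mOsm/kg replicates 2 or 3 at 24 h, and lost without each of the other 7 (adjusted p 0.0739 to 0.258, limma). Over both times the call was kept without 300 mOsm/kg replicate 1 or 640 mOsm/kg replicate 2 of either time, and lost without each of the other 8 (adjusted p 0.0623 to 0.0942).

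Egln3, the prolyl hydroxylase known to be itself induced by HIF, had 9.24, 9.19 and 9.22 at 300 mOsm/kg and 9.66, 9.36 and 9.65 at 640 mOsm/kg at 24 h. At 48 h it had 8.85, 8.51 and 8.91 at 300 mOsm/kg and 9.61, 9.10 and 9.62 at 640 mOsm/kg. The arrays were apart at both times, and replicate 2 was lowest in each group. The change was -0.34 ± 0.181 at 24 h, -0.68 ± 0.181 at 48 h and -0.51 ± 0.128 over both times, and only the last was called (adjusted p = 1.0, 0.0822 and 0.0397, limma). That call was kept without replicate 2 at 640 mOsm/kg of either time and lost without each of the other 10 arrays (adjusted p 0.0588 to 0.122). Epas1, the HIF alpha subunit prominent in endothelial and interstitial cells, differed by -0.22 ± 0.184 over both times (adjusted p = 0.918, limma). Egln1, the main oxygen sensor among the hydroxylases, differed by 0.00 with a 95% interval from -0.33 to 0.33.

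Of the 14 other hypoxia targets, 9 were lower and 5 higher at 300 mOsm/kg over both times, and 11 were lower and 3 higher at 48 h. Mxi1, a MYC antagonist, was the only one called, over both times alone (limma), and 2 passed at an unadjusted p under 0.05. It read 9.09, 8.39 and 9.06 at 300 mOsm/kg and 9.47, 9.10 and 9.84 at 640 mOsm/kg at 24 h, and 9.38, 8.85 and 9.49 at 300 mOsm/kg and 10.25, 9.66 and 10.01 at 640 mOsm/kg at 48 h. The groups were apart at both times, though closely at 24 h. Mxi1 differed by -0.62 ± 0.251 at 24 h, -0.74 ± 0.251 at 48 h and -0.68 ± 0.177 over both times (adjusted p = 0.681, 0.243 and 0.0483, limma). The call was kept without 300 mOsm/kg replicate 1 at 24 h or 640 mOsm/kg replicate 2 of either time and lost without each of the other 9 arrays (adjusted p 0.0588 to 0.146).

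The widely used hypoxia reporters gave no call. Vegfa, the angiogenic growth factor, differed by -0.13 over both times (95% interval -0.43 to 0.17), Car9, a membrane carbonic anhydrase, by -0.03 (-0.44 to 0.39), and Bnip3, a mitophagy receptor, by 0.06 (-0.41 to 0.53). Ndrg1, a stress-response protein, differed by -0.30 (-0.67 to 0.08), Ddit4, an inhibitor of mTORC1, by -0.09 (-0.50 to 0.33), and Bnip3l, a second mitophagy receptor, by -0.04 (-0.30 to 0.22). Intervals of this width do not show that these targets were unaffected. Car9 had a mean level of 6.06 over the arrays, and without detection calls it is not known whether this lies above background.

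The differences over both times for the other targets were -0.25 for Kdm3a, a histone demethylase, -0.25 for Ankrd37, -0.12 for Higd1a, a mitochondrial protein, 0.01 for Ero1a, an oxidase of protein folding, and 0.04 for P4ha1, a catalytic subunit of collagen prolyl hydroxylase. None of these 5 was called.

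The 2 largest positive differences among the targets belonged to Adm and P4ha2. Adm, which encodes the vasodilator peptide adrenomedullin, had 6.54, 6.68 and 6.91 at 300 mOsm/kg and 6.19, 6.61 and 6.27 at 640 mOsm/kg at 24 h, and 6.57, 7.56 and 6.85 at 300 mOsm/kg and 6.44, 6.87 and 6.40 at 640 mOsm/kg at 48 h. The groups overlapped at both times, and 0.39 ± 0.166 over both times was not called (adjusted p = 0.351, limma). P4ha2, the second catalytic subunit of collagen prolyl hydroxylase, had 8.63, 7.72 and 8.48 at 300 mOsm/kg and 8.38, 7.54 and 8.41 at 640 mOsm/kg at 24 h, and 8.94, 8.45 and 8.93 at 300 mOsm/kg and 8.29, 7.95 and 8.45 at 640 mOsm/kg at 48 h. The groups overlapped at 24 h and lay apart at 48 h, with 300 mOsm/kg higher. The 48 h difference of 0.55 ± 0.273 was the highest of the 44 members at that time, and neither it nor 0.36 ± 0.193 over both times was called (adjusted p = 0.696 and 0.579, limma).

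Enzymes and other hypoxia targets were then set side by side. The 19 transporters and enzymes had a median osmolality change of -0.04 at 24 h and -0.06 at 48 h, and the 14 other targets -0.03 at 24 h and -0.09 at 48 h. Counts of calls were 1 of 19 and 1 of 14 over both times. The mean level of the 19 minus the mean level of the 14, taken within each array, was 1.99 ± 0.0727 at 300 mOsm/kg and 1.99 ± 0.0504 at 640 mOsm/kg at 24 h (SD, n = 3 each). At 48 h it was 2.09 ± 0.0616 at 300 mOsm/kg and 2.08 ± 0.0938 at 640 mOsm/kg. The size of this difference depends on the probe sets and means nothing in itself, and the arrays of the 2 osmolalities overlapped in it at each time.

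**Figure D3:**
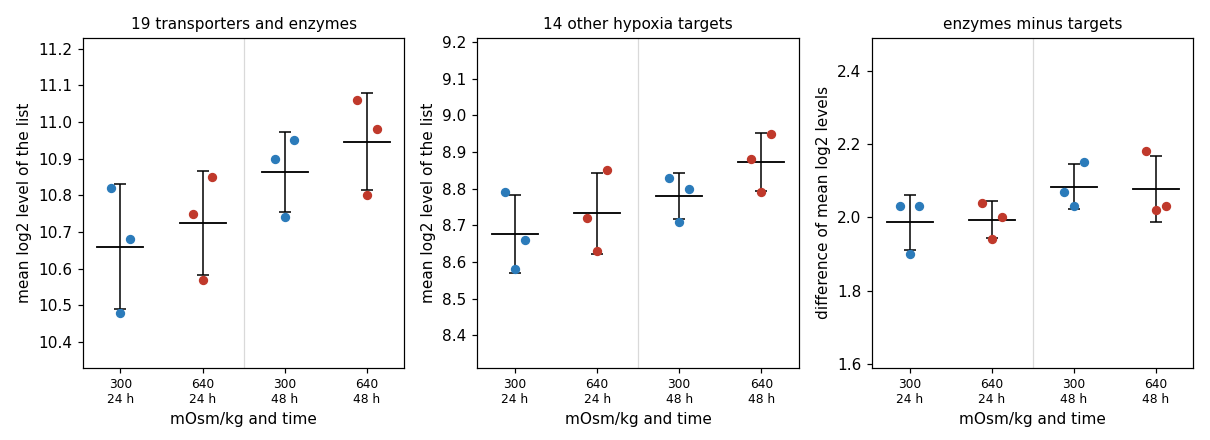
Mean log2 signal (y axis) of the 19 transporters and enzymes of glycolysis and of the 14 other hypoxia targets and their difference on each of the 12 arrays, with the 300 mOsm/kg group left of the 640 mOsm/kg group at each time (x axis); points are arrays, long lines are means of 3 and bars are SDs. Taken as unpaired, the groups overlap between osmolalities in all 3 panels, and the enzyme list reads 10.74 to 11.06 at 48 h and 10.48 to 10.85 at 24 h. With 300 mOsm/kg replicates 1, 2 and 3 set beside 640 mOsm/kg replicates 3, 2 and 1, both list means are slightly lower at 300 mOsm/kg in every pair. This pattern was not tested.

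Between 24 h and 48 h no member was called at 300 mOsm/kg or at 640 mOsm/kg (limma), where 0.255% and 0.138% of all genes were. At an unadjusted p under 0.05, 4 members (9.09%) passed at 300 mOsm/kg and 5 (11.4%) at 640 mOsm/kg, beside 7.62% and 6.58% of all genes. At 300 mOsm/kg the deviations of same-numbered arrays of the 2 times correlated at 0.459 and 0.426 for replicates 1 and 2, and weakly, at 0.116, for replicate 3. A fit with the replicate block within the 300 mOsm/kg arrays, chosen after seeing the data, called 0 members and 405 genes, against 37 genes without it. The osmolality change itself also differed between times for none of the 44, beside 0.0276% of all genes, and at an unadjusted p under 0.05 for Pdk4 and Pfkfb3 only. Slc2a3 had the same tendency at both osmolalities. It read 7.79, 7.79 and 7.72 at 48 h and 7.23, 7.22 and 7.43 at 24 h at 300 mOsm/kg, a difference of 0.47 ± 0.168 (adjusted p = 0.462, limma), and 7.70, 7.32 and 7.80 at 48 h and 7.35, 7.03 and 7.06 at 24 h at 640 mOsm/kg, a difference of 0.46 ± 0.168 (adjusted p = 0.565). Pgam1, phosphoglycerate mutase, differed by 0.37 at 300 mOsm/kg and 0.40 at 640 mOsm/kg (adjusted p = 0.591 and 0.599, limma). Pdk4 differed by -0.60 ± 0.167 with time at 300 mOsm/kg and by 0.06 ± 0.167 at 640 mOsm/kg (adjusted p = 0.223 and 0.991). Hif1a and Pfkfb3 differed by 0.09 and -0.07 at 300 mOsm/kg and by 0.53 and 0.47 at 640 mOsm/kg (adjusted p = 0.937, 0.95, 0.526 and 0.583, limma).

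As a list, the transporters and enzymes were higher at 48 h than at 24 h in 17 of 19 genes at 300 mOsm/kg and 18 of 19 at 640 mOsm/kg, with medians of 0.18 and 0.23 on the centred scale, which turned to -0.26 and -0.18 on the deposited values and to -0.01 and 0.06 after cyclic loess scaling. The other hypoxia targets had medians of 0.07 and 0.12, which turned to -0.36 and -0.30 on the deposited values. Arrays of the 2 times lay apart and higher at 48 h in 2 members at 300 mOsm/kg (7.29% of all genes) and 7 at 640 mOsm/kg (4.95%), and apart and lower in 2 (4.85%) and 1 (4.63%). The direction of the time change of both lists depended on how the brighter 24 h arrays were scaled. All 7 fibroblast markers were also higher at 48 h at both osmolalities, with Col1a1, Dcn and Pdgfrb called in each. Their mean level was 7.64 to 8.21 at 48 h and 6.84 to 7.17 at 24 h at 300 mOsm/kg, and 7.66 to 7.98 at 48 h and 6.59 to 7.24 at 24 h at 640 mOsm/kg. All 6 cell division genes were lower at 48 h at both osmolalities, with Ccna2 and Top2a called at 300 mOsm/kg. Their mean level was 7.27 to 7.51 at 48 h and 8.11 to 8.39 at 24 h at 300 mOsm/kg, and 6.61 to 6.89 at 48 h and 7.07 to 7.34 at 24 h at 640 mOsm/kg. Of the 7 macrophage markers, 5 were higher at 48 h at 300 mOsm/kg and 7 at 640 mOsm/kg, with medians of 0.59 and 0.51 and no call (limma), 4 passing at an unadjusted p under 0.05 in each. The part of these 3 lists in the time differences of the members was not tested.

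**Figure D4:**
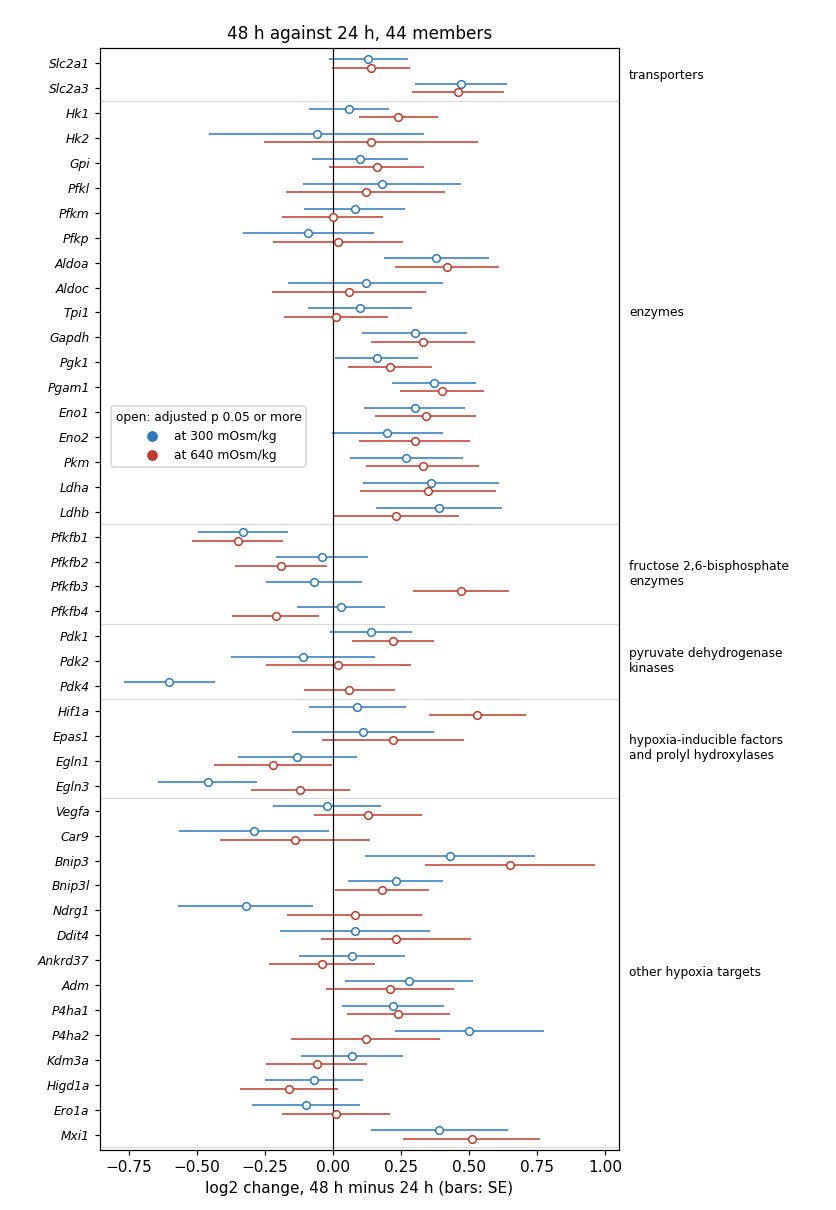
Change in log2 signal from 24 h to 48 h (x axis, 48 h minus 24 h, arrays centred on their medians) for the 44 members (y axis, grouped by role) at 300 and at 640 mOsm/kg; points are group differences from limma (3 arrays per group) and bars are standard errors. No point is filled, since none had an adjusted p under 0.05, and the enzymes lie mostly to the right of zero on this scale.

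The neighbouring pathways were described by 80 further genes that were on the arrays out of 98 listed. This list was also made with earlier results of these data known, so its shares are no test either. At 24 h none of the 80 was called (limma), where 0.655% of all genes were, and 6 (7.5%) passed at an unadjusted p under 0.05, beside 5.45% of all genes. At 48 h 2 were called (2.5%, beside 1.85%), and over both times 6 (7.5%, beside 3.43%), 2 higher and 4 lower. Of the 22 further glycolysis and pyruvate genes, Bpgm, which makes bisphosphoglycerate, fell by 0.48 ± 0.111 and Pdha1, the catalytic subunit of pyruvate dehydrogenase, fell by 0.58 ± 0.139 (adjusted p = 0.0226 and 0.0305, limma). Among the 7 gluconeogenesis genes, Pc, pyruvate carboxylase, fell by 0.67 ± 0.169 (adjusted p = 0.0406). Of the 6 pentose phosphate genes, the 9 glycogen genes and the 9 further genes of the HIF machinery, none was called over both times (limma), with 1, 1 and 3 of them at an unadjusted p under 0.05.

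Among 29 further hypoxia targets, 2 were called higher and 1 lower over both times (limma). Edn1, which encodes the vasoconstrictor and sodium-handling peptide endothelin, rose by 0.63 ± 0.132 over both times and by 0.93 ± 0.186 at 48 h (adjusted p = 0.0121 and 0.0146, limma). Plin2, a lipid droplet coat protein, rose by 0.50 ± 0.109 over both times (adjusted p = 0.0152). Car12, a membrane carbonic anhydrase, fell by 0.58 ± 0.110 over both times and by 0.91 ± 0.156 at 48 h (adjusted p = 0.0059 and 0.00457). The medians of these 29 were 0.05 over both times and 0.16 at 48 h.

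Markers of other cell states moved with osmolality beside the members. All 6 cell division genes were higher at 300 mOsm/kg, with a mean level of 8.11 to 8.39 at 300 mOsm/kg and 7.07 to 7.34 at 640 mOsm/kg at 24 h, and 7.27 to 7.51 at 300 mOsm/kg and 6.61 to 6.89 at 640 mOsm/kg at 48 h. Over both times 5 of the 6 were called (Aurkb, Bub1, Ccna2, Ccnb1 and Top2a). The 5 limb markers had a mean level of 6.10 to 6.13 at 300 mOsm/kg and 6.71 to 7.08 at 640 mOsm/kg at 24 h, with 3 called lower over both times (Aqp1, Cldn10 and Slc12a1). Of 6 endothelial and 7 macrophage markers, Emcn and Csf1r were called lower over both times, by 1.18 ± 0.215 and 0.61 ± 0.109 (adjusted p = 0.00463 and 0.00378, limma). The 7 fibroblast markers had no call for osmolality (limma), 2 of them passing at an unadjusted p under 0.05 over both times. The lowest value of any probe set was 1.12, so a listed value does not show that a marker was detected. The part of these cell types and of cell division in the differences of Pfkfb3, Hk1, Hif1a, Egln3, Mxi1, Pdk1 and Pdk4 was not tested.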

How the data were processed

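The deposited log2 values of 27596 probe sets on 12 arrays were used. They were made by the authors with Affymetrix Power Tools and RMA, per the submitters' processing notes; versions, probe intensities and detection calls are not given in the sources used here, so the number of arrays limits the precision. Of the probe sets, 15310 carried 1 gene symbol, 323 several and 11963 none in the platform annotation. Each of 14506 genes was represented by its probe set with the highest mean over the arrays (8 members had several), and each array was centred on its median over these genes. limma 3.58.1 in R 4.3.3 fitted 1 mean per group with 8 residual degrees of freedom, and p-values were Benjamini-Hochberg adjusted over all genes. The 6 contrasts were osmolality at each time, over both times and its difference between times, and time at each osmolality. Intervals are 95% and unadjusted. The scripts were tested on simulated data.

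The members and lists were chosen with earlier results of these data known. Array values are given for members called in any contrast and the 3 largest rises and falls over both times, and for Pfkfb2, Hk2 and Slc2a3, which were chosen for their place beside such members or after their values were seen; further genes of the pathway are named where called. For promoters, 39 members matched RefSeq by symbol, the first listed start being used for the 5 with several. Alternatives were no centring, other scalings, leaving out the dimmest 30% of genes, other moderation, array weights, the mean of probe sets, a fit of only the groups compared, a replicate block, and leaving out each array. Deviations of same-numbered arrays from their group means correlated above 0.1 in every pair only between 48 h and 24 h at 300 mOsm/kg (0.459, 0.426 and 0.116 for replicates 1, 2 and 3), so the numbers were taken to pair these samples, from the data and not from the labels.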

Additional observations from a re-analysis of the deposited data

How the results depend on the processing

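Pfkfb3 stayed lower at 300 mOsm/kg under every alternative run, from -1.27 to -1.04 at 24 h and from -1.79 to -1.54 at 48 h (adjusted p 7.26e-06 to 0.204 and 6.14e-06 to 0.00402, limma). Without centring, 0 members were called at 24 h, 1 at 48 h and 1 over both times (limma), and all genes called numbered 13, 104 and 185, with 0 for each time contrast; adjusted p was 0.679 for Hk1, 0.494 for Pdk4 and 0.245 for Hif1a at 48 h, and 0.0651 (Mxi1) to 0.432 (Pdk1) for the 5 calls lost over both times. On that scale the medians for 48 h against 24 h were -0.26 at 300 mOsm/kg and -0.18 at 640 mOsm/kg for the transporters and enzymes and -0.36 and -0.30 for the other hypoxia targets; cyclic loess gave the enzymes -0.01 and 0.06. With array weights 7 members were called at 24 h, 10 over both times, 6 for time at 300 mOsm/kg and 5 at 640 mOsm/kg, among 1595, 1462, 1907 and 986 genes; at 48 h 499 genes were called. Fitting only the groups compared left 0 members and 10 genes at 24 h and ended the 48 h call of Hif1a (adjusted p = 0.0666, limma). Leaving out both dimmer 24 h arrays, an alternative chosen after seeing the data, left 0 members and 17 genes at 24 h and 2 members over both times (Pfkfb3 and Hk1), with 219 and 34 genes for time at 300 and 640 mOsm/kg. Leaving out 1 array at a time gave 0 to 1 members at 24 h, 1 to 4 at 48 h and 2 to 6 over both times, and 26 to 78, 158 to 296 and 360 to 516 genes; for time at 300 and 640 mOsm/kg it gave 7 to 50 and 6 to 19 genes. The 4 genes called for the difference between times became 0 to 10 over all alternatives. The uncalled 24 h difference of Pdk4 was 0.01 with array weights and 0.06 without both dimmer arrays, and -0.18 to 0.03 without 1 array, while that of P4ha2 was -0.12 to 0.44. The cause of these differences was not tested. Same-numbered replicates deviated together for replicate 2 (correlation across genes 0.844 at 24 h and 0.795 at 48 h) but not for replicate 1 (-0.125 and -0.231) or 3 (-0.206 and -0.222) between osmolalities, so the numbers pair no samples there. Between 48 h and 24 h they were 0.459, 0.426 and 0.116 at 300 mOsm/kg but 0.0332, 0.455 and 0.359 at 640 mOsm/kg. The fit with the replicate block called 1 member at 24 h, 6 at 48 h and 6 over both times, among 159, 403 and 735 genes. For osmolality this block joined arrays that the numbers do not pair, so these counts are no check of pairing. A block joining 300 mOsm/kg replicates 1, 2 and 3 to 640 mOsm/kg replicates 3, 2 and 1 was not fitted. For time at 300 and 640 mOsm/kg the replicate block called 92 and 35 genes. Within the arrays of 1 osmolality, a fit chosen after seeing the data, it called 405 and 208 genes. It called 0 members for time in either fit. The intervals and standard errors given for single members come from fits without a block.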

Other observations

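The array held several probe sets for 8 members. The 3 probe sets of Mxi1 differed between 300 and 640 mOsm/kg by -0.68 to -0.55 over both times. For Gapdh, 16 probe sets gave -0.10 to -0.01, all lower at 300 mOsm/kg, and for Pkm 3 gave -0.30 to -0.28. Eno1 had 3 between -0.13 and -0.12, and Ldha had 2 between -0.08 and -0.06. The 2 of Bnip3 gave 0.02 and 0.06, those of Egln1 -0.03 and 0.00, and those of Pgam1 -0.04 each, at mean levels of 12.89 and 6.41. Gapdh and Pgam1 belong to families with many near-identical copies in the rat genome, so their probe sets may read more than 1 gene. Pfkfb3, Hk1, Hif1a, Egln3, Pdk1 and Pdk4 had a single probe set each.

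Arrays also varied within groups in a way the labels do not name. The members' range over the 3 arrays of a group had a median of 0.39 at 300 mOsm/kg and 0.45 at 640 mOsm/kg at 24 h, and 0.35 and 0.39 at 48 h. Deviations from the group means correlated across genes between 300 mOsm/kg replicate 1 and 640 mOsm/kg replicate 3 (0.825 at 24 h, 0.78 at 48 h) and between 300 mOsm/kg replicate 3 and 640 mOsm/kg replicate 1 (0.576 and 0.631); genes are not independent replicates, and no cause was tested.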
